A study of Mus musculus with 9 samples.

Results

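The core of Polycomb repressive complex 2 (PRC2) was followed across 3 kinds of mouse gut organoid culture through the 6 genes that encode it: Ezh1 and Ezh2, Eed, Suz12, Rbbp4 and Rbbp7. They were found by symbol in the authors' table of nascent transcription, 6 of its 24505 genes, and all 6 were among the 16563 genes with enough signal to test. Nascent transcription was read by GRO-seq, which sequences RNA being made by polymerases already engaged in isolated nuclei, so a value reflects transcription and not the amount of messenger RNA or protein. All cultures were organoids (mini-guts) derived from the duodenum of mice, with 2 GRO-seq libraries each of RANKL, ENRI and WENRC. RANKL is labelled as the M cell, the antigen-sampling cell over lymphoid follicles, ENRI as the enterocyte, the absorptive cell, and WENRC as the stem cell. H3K27me3, the mark that PRC2 writes, was mapped by ChIP-seq in RANKL, where the authors pooled 2 libraries, and in 1 library of WENRC. The labels give no genotype, strain, sex, age, dose or culture time for any group and do not spell out the culture names. ENRI 1 and WENRC 1 come from mouse 1 and ENRI 2 and WENRC 2 from mouse 2, while the RANKL libraries carry a replicate number with no animal, so p-values measure only the spread between these libraries, which for RANKL may be technical.

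PRC2 adds methyl groups to lysine on the tail of histone H3 and so helps to keep genes silent through cell division. EZH2 and EZH1 are its alternative catalytic subunits: EZH2 is the more active enzyme and is typical of dividing cells, where E2F factors drive its gene, and EZH1 is typical of cells that no longer divide. SUZ12 holds the complex together, EED reads the existing mark and stimulates the enzyme, and RBBP4 and RBBP7 are closely related histone-binding proteins that PRC2 shares with other chromatin complexes. In the gut lining, PRC2 is known for keeping crypt cells dividing and for holding differentiation genes silent.

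The start regions of 3 members are shown because the results turn on the contrast of Ezh2 with Ezh1 and on Rbbp4, the member with the highest change. Each run covers the 250 bases before the annotated start and the first 20 bases from it, 5′ to 3′ on the gene's strand, from RefSeq on the GRCm38.p6 build; all 6 members had an entry. Ezh2 lies at chr6:47595011-47595280, Ezh1 at chr11:101226444-101226713 and Rbbp4 at chr4:129335351-129335620, all on the minus strand. Capitals mark matches to the E2F-type letters TTTGGCGC or TTTCGCGC and to the CCAAT box, letters CCAAT, each searched on both strands, so that a CCAAT box on the opposite strand reads ATTGG.
Ezh2: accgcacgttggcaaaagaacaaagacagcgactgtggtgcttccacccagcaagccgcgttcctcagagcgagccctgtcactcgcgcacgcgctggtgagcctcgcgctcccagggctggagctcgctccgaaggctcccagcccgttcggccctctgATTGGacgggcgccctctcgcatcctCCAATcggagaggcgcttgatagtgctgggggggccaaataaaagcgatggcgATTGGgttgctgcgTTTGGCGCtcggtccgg
Ezh1: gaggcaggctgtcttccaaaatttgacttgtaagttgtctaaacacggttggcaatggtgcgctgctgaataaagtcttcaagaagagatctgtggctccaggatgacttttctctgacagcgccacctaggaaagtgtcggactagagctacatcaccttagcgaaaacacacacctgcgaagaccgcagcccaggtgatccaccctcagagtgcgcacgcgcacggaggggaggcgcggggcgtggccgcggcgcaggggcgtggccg
Rbbp4: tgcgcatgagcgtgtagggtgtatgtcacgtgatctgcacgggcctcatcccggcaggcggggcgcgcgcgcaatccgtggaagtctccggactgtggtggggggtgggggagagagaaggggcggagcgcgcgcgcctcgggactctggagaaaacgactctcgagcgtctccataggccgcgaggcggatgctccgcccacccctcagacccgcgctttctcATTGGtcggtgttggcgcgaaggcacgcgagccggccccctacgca
The E2F-type letters stood in the 300-base window (250 before and 50 from the start) of Ezh2 at bases 4 to 11 from its start and in no window of the other 5 members, and 0.813% of 32851 mouse promoters of that length held them. Ezh2 also had 3 CCAAT boxes, which lay 64 to 60 bases before the start on the gene's strand, and 90 to 86 and 11 to 7 bases before it on the opposite strand. CCAAT was found in 5 of the 6 members, Ezh1 being the exception, against 37.4% of all promoters. The single CCAAT of Rbbp4 lay 26 to 22 bases before its start on the opposite strand. The GC box, letters GGGCGG, was found in Suz12, Rbbp4 and Rbbp7 and in 35.7% of promoters, and the CHR-type letters TTTGAA or TTCGAA in Eed and Suz12 and in 19.2%. None of these letter sets contains another, and they were chosen with the sequences in view. Only exact matches were counted: the Rbbp4 run holds gttggcgc, which differs from TTTGGCGC only in its leading letter and is not marked. A match describes the letters and not a bound site, and a missing match does not show that a site is absent.

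The cultures were checked against marker lists of gut cell types. With limma at an FDR under 0.05, 8 of 8 M cell markers were higher in RANKL than in ENRI and 7 of 8 higher than in WENRC, 6 of 6 stem cell markers were higher in WENRC than in ENRI, and 8 of 8 enterocyte markers were lower in WENRC than in ENRI. RANKL was not free of the other types: 4 of 6 stem cell markers were higher there than in ENRI. The summed level of the list, as log2, was 13.41 and 13.51 in RANKL, 10.90 and 11.35 in ENRI and 13.75 and 13.86 in WENRC. Against WENRC 1 of the 6 was called higher in RANKL, Tnfrsf19, and 1 lower, Lgr5, with a list median of -0.02. Lgr5 in RANKL differed from WENRC by -3.02 (limma FDR 0.00166) and from ENRI by 0.10 (limma FDR 0.748). The summed enterocyte markers had 14.92 and 15.05 in RANKL, 15.83 and 16.68 in ENRI, and 13.34 and 11.92 in WENRC. Markers of rarer types, namely Paneth, tuft and enteroendocrine cells, were also highest in RANKL by summed level. Of the core members, Ezh1, Eed and Rbbp4 were highest in RANKL without overlap. Among all tested genes, RANKL lay without overlap above ENRI for 32.4% and above WENRC for 34.1%. Of 5 Paneth cell markers, Defa24 and Mmp7 were higher in RANKL than in ENRI and than in WENRC. Their list summed to 10.98 and 10.80 in RANKL, 8.68 and 9.71 in ENRI, and 9.06 and 9.46 in WENRC. Of 5 tuft cell markers, 3 were higher than in ENRI and 2 of these than in WENRC. Their sums were 9.92 and 9.98 in RANKL, 8.90 and 8.72 in ENRI, and 9.04 and 9.27 in WENRC. Of 4 enteroendocrine markers tested, Neurod1 was called higher in RANKL than in ENRI, and Chga higher than in WENRC. The sums of that list were 10.41 and 10.86 in RANKL, 8.99 and 9.86 in ENRI, and 8.76 and 9.57 in WENRC. Goblet cell markers summed to 13.65 and 13.61 in RANKL, 13.81 and 13.28 in ENRI, and 11.86 and 10.83 in WENRC. Of these 6 markers, 1 was higher in RANKL than in ENRI and 3 were higher than in WENRC. The part of any of these cell types in the results was not tested. No gene of any marker list was at 0 in all 6 libraries. In such mixed cultures fewer cells of a type and less transcription per cell cannot be told apart. The RANKL columns are named in the file header as combined reads of a repeat sequencing, so sequencing batch and RANKL culture cannot be told apart either. Replicates were least alike in ENRI, where the differences between replicates had an SD over all tested genes of 0.699 on the log2 scale, against 0.421 in WENRC and 0.220 in RANKL.

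Ezh2, the catalytic subunit of dividing cells, was transcribed at like levels in RANKL and WENRC and lower in ENRI. It lies on the minus strand of chromosome 6 (NM_001146689, mm9 47480273 to 47545029). Its normalized log2 level was 10.55 and 10.67 in RANKL, 10.12 and 9.54 in ENRI, and 10.57 and 10.53 in WENRC. Both ENRI libraries lay below all others, ENRI 2 by more than ENRI 1, and the RANKL and WENRC ranges overlapped. The RANKL mean of 10.61 ± 0.08 (SD, n = 2) was higher than the ENRI mean of 9.83 ± 0.41 by 0.78 on the log2 scale (SE 0.21, 95% interval 0.27 to 1.29, limma FDR 0.0481), just inside the threshold of 0.05. That difference was 1.07 without ENRI 1 and 0.48 without ENRI 2, and called in both fits (limma FDR 0.000902 and 0.0321). The WENRC mean of 10.55 ± 0.03 differed from ENRI by 0.72 (0.21 to 1.23, limma FDR 0.0704), which was not called. Between RANKL and WENRC the difference was 0.06, with an interval of -0.45 to 0.57 and a limma FDR of 0.892. The values are log2 as deposited and appear drawn together for weakly transcribed genes, so these differences may understate the change.

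Ezh1, the alternative catalytic subunit, had a different order: it was high in RANKL and low in both other cultures. It lies on the minus strand of chromosome 11 (NM_007970, 101052429 to 101087777). Its level was 9.76 and 9.91 in RANKL, 9.18 and 8.91 in ENRI, and 9.06 and 8.97 in WENRC. Both RANKL libraries stood above the other 4, and ENRI and WENRC overlapped. The RANKL mean of 9.83 ± 0.10 was higher than the ENRI mean of 9.05 ± 0.19 by 0.79 (SE 0.15, 0.42 to 1.16, limma FDR 0.0194) and higher than the WENRC mean of 9.01 ± 0.06 by 0.82 (SE 0.15, 0.45 to 1.19, limma FDR 0.0238). The latter is a 1.76-fold difference. WENRC and ENRI differed by -0.03 (-0.40 to 0.34, limma FDR 0.911). In the authors' deposited table, Ezh1 was likewise past an adjusted p of 0.05 in RANKL against ENRI (log2 change 0.92, adjusted p 0.0217) and against WENRC (0.96, adjusted p 4.4e-06), whereas Ezh2 in RANKL against ENRI was not (0.85, adjusted p 0.065).

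**Figure D1:**
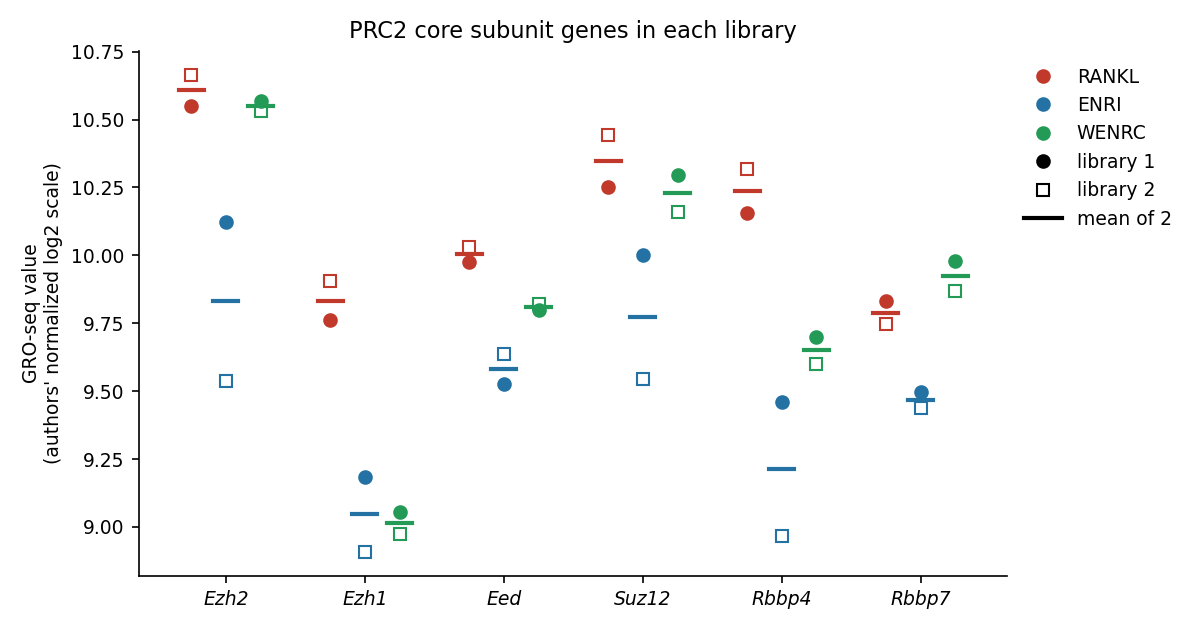
Normalized log2 GRO-seq level of the 6 PRC2 core genes in each of the 6 libraries, as deposited; points are libraries grouped by culture and horizontal bars are culture means. The 2 ENRI libraries are the lowest for Eed, Suz12, Ezh2, Rbbp4 and Rbbp7, while Ezh1 is low in ENRI and WENRC alike.

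Within a library, the difference of the paralogs cancels any factor common to that library. Ezh2 minus Ezh1 was 0.79 and 0.76 in RANKL, 0.94 and 0.63 in ENRI, and 1.51 and 1.56 in WENRC. WENRC stood apart, with both libraries above the other 4, and RANKL lay within the ENRI range. The means were 0.77 ± 0.02 in RANKL, 0.78 ± 0.22 in ENRI and 1.53 ± 0.03 in WENRC (SD, n = 2). WENRC thus exceeded RANKL by 0.76 and ENRI by 0.75, and for each of these the exact two-sided permutation test gave p = 0.333, the smallest that 2 libraries against 2 allow, so this test cannot reach 0.05 here. RANKL and ENRI differed by -0.01 (exact permutation p = 1). Over the 6 paralog comparisons made, the smallest Benjamini-Hochberg adjusted value was 0.5.

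**Figure D2:**
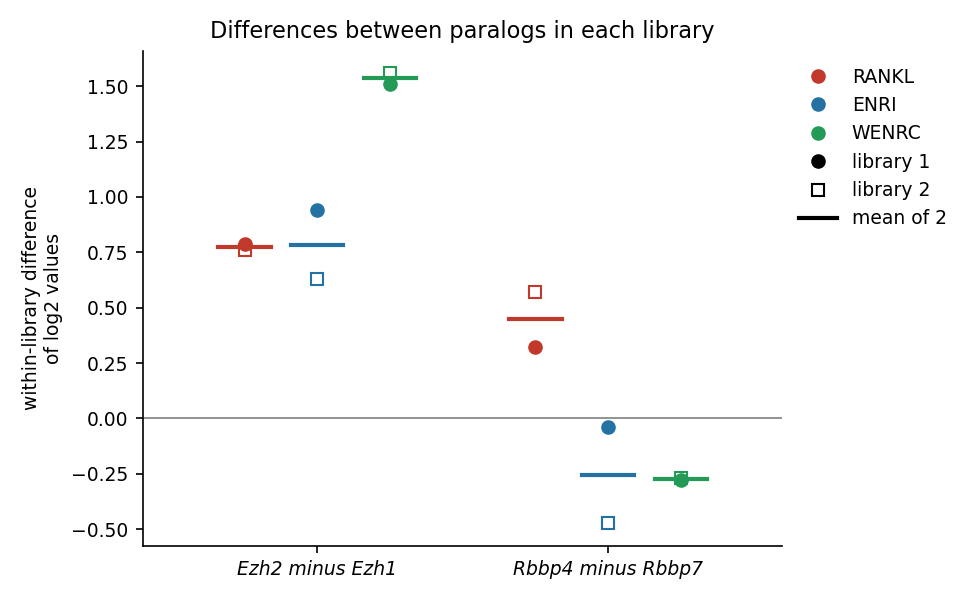
Within-library differences of log2 GRO-seq level for the paralog pairs Ezh2 minus Ezh1 and Rbbp4 minus Rbbp7, with 1 point per library and bars at culture means. WENRC is apart for the catalytic pair (1.51 and 1.56), and RANKL is apart for the histone-binding pair (0.32 and 0.57).

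Eed and Suz12, the subunits that complete the catalytic core, were highest in RANKL and lowest in ENRI by their means, but neither passed the test in any comparison. Eed, the reader of the mark, lies on the minus strand of chromosome 7 (NM_021876, 97103164 to 97129486) and had 9.98 and 10.03 in RANKL, 9.53 and 9.64 in ENRI, and 9.80 and 9.82 in WENRC. Its 3 cultures did not overlap one another and its spread was small. RANKL differed from ENRI by 0.42 (0.12 to 0.72, limma FDR 0.0605) and from WENRC by 0.19 (-0.11 to 0.50, limma FDR 0.360). Suz12, the scaffold, lies on the plus strand of chromosome 11 (NM_001163018, 79806608 to 79847625) and had 10.25 and 10.44 in RANKL, 10.001 and 9.55 in ENRI, and 10.30 and 10.16 in WENRC. As for Ezh2, both ENRI libraries were below the rest, with ENRI 2 lowest, and RANKL and WENRC overlapped. RANKL differed from ENRI by 0.57 (0.11 to 1.04, limma FDR 0.0816) and from WENRC by 0.12 (-0.34 to 0.58, limma FDR 0.728). The Suz12 difference from ENRI was 0.80 without ENRI 1, where it was called (limma FDR 0.00466), and 0.35 without ENRI 2, where it was not (limma FDR 0.126). For Eed it was 0.37 without ENRI 1 (limma FDR 0.0525) and 0.48 without ENRI 2, where it was called (limma FDR 0.0313). Of all tested genes 42.1% were called without ENRI 1 and 26.8% without ENRI 2.

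Of the histone-binding pair, Rbbp4 changed and Rbbp7 did not pass the test. Rbbp4 lies on the minus strand of chromosome 4 (NM_009030, 128984344 to 129012614) and had 10.16 and 10.32 in RANKL, 9.46 and 8.97 in ENRI, and 9.70 and 9.60 in WENRC. The cultures did not overlap, with RANKL highest and ENRI lowest. The RANKL mean of 10.24 ± 0.12 was higher than the ENRI mean of 9.21 ± 0.35 by 1.02 (SE 0.19, 0.55 to 1.50, limma FDR 0.0183), a 2.03-fold difference with an interval of 1.47 to 2.82. Against the WENRC mean of 9.65 ± 0.07 the difference was 0.59 (0.11 to 1.06, limma FDR 0.108). In the authors' deposited table Rbbp4 passed in both, with a log2 change of 1.16 (adjusted p 0.00539) against ENRI and 0.67 (adjusted p 0.000619) against WENRC.

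Rbbp7 lies on the plus strand of the X chromosome (NM_009031, 159198304 to 159217022) and had 9.83 and 9.75 in RANKL, 9.50 and 9.44 in ENRI, and 9.98 and 9.87 in WENRC. Unlike the other members, it had its 2 highest values in WENRC, and its 2 lowest were in ENRI. RANKL differed from ENRI by 0.32 (0.01 to 0.63, limma FDR 0.126), and from WENRC by -0.13 (-0.44 to 0.18, limma FDR 0.540). WENRC differed from ENRI by 0.45 (0.14 to 0.76, limma FDR 0.0633). Y-linked Uty was high in both libraries of mouse 1 (10.47 in ENRI 1 and 10.28 in WENRC 1) and low in the other 4 (3.62 to 4.73), whereas Rbbp7 did not separate by mouse. Rbbp4 minus Rbbp7 was 0.32 and 0.57 in RANKL, -0.04 and -0.47 in ENRI, and -0.28 and -0.27 in WENRC. Both RANKL differences stood above those of the other 4 libraries. The means were 0.45 ± 0.18, -0.26 ± 0.31 and -0.27 ± 0.01, and RANKL exceeded ENRI by 0.70 and WENRC by 0.72 (exact two-sided permutation p = 0.333 each, the smallest possible).

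The neighbours of Rbbp4 bear on its value, because strand handling is not stated and reads of overlapping genes may be shared. Sync, on the plus strand, overlaps the end of Rbbp4 over 1459 bp, 5.16% of its length. Sync had 9.32 and 9.47 in RANKL, 8.46 and 8.27 in ENRI, and 8.79 and 8.82 in WENRC, the same order of cultures as Rbbp4. It was higher in RANKL than in ENRI by 1.03 (limma FDR 0.00819) and differed from WENRC by 0.59 (limma FDR 0.0509), and how far shared reads enter was not tested. Zbtb8os, which starts 656 bp from Rbbp4 on the other strand, differed between RANKL and ENRI by -0.34 (limma FDR 0.365). Rbbp7 overlaps the end of Txlng over 173 bp, 0.924% of the length of Rbbp7, and Txlng differed between RANKL and ENRI by -0.05 (limma FDR 0.864). The other 4 members overlap no listed gene.

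In RANKL against ENRI, 3 of the 6 members were called, all higher: Ezh1, Ezh2 and Rbbp4. Of all tested genes 20.9% were called in this comparison, 10.4% higher and 10.5% lower. All 6 members had both RANKL libraries above both ENRI libraries, which held for 32.4% of tested genes, while 32.3% lay below without overlap, and the median change of the members was 0.68, against -0.00 over all tested genes. In RANKL against WENRC, 1 of 6 was called, Ezh1, higher in RANKL, where 12.1% of all tested genes were called, 8.53% higher and 3.62% lower. Ezh1, Eed and Rbbp4 lay above WENRC without overlap (34.1% of tested genes), Rbbp7 lay below it (34.5%), and Ezh2 and Suz12 overlapped; the median was 0.16. In WENRC against ENRI limma called 0 of 6, where 14.6% of tested genes were called, 4.85% higher and 9.74% lower. Ezh2 and Rbbp7 had an unadjusted p under 0.05 there, 2 of 6, as did 32.5% of all tested genes, and the authors' deposited table also had 0 members past its threshold, where 12.5% of tested genes were called, 3.3% higher. All members but Ezh1 lay above ENRI without overlap (29.3% of tested genes, with 29.2% below), and the median was 0.45. The authors' deposited table called 2 of 6, Ezh1 and Rbbp4, higher in RANKL than in ENRI, beside 8.55% of tested genes, and the same members higher than in WENRC, beside 16.7%. The comparisons share libraries, so they are not independent of one another.

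Leaving out single libraries changed which members were called, and calls over all genes changed with them. Without RANKL 1 or RANKL 2, when the remaining library is assumed to vary like the other cultures, 0 of 6 members were called against ENRI, where 0.670% and 0.386% of all tested genes were called. The changes were then 0.86 and 0.71 for Ezh1 (limma FDR 0.130 and 0.183), 0.83 and 0.72 for Ezh2 (0.206 and 0.273), and 1.11 and 0.94 for Rbbp4 (0.123 and 0.166). For Ezh1 against WENRC they were 0.89 and 0.75 (0.167 and 0.241), and 0.86 and 0.78 without WENRC 1 or WENRC 2 (0.119 and 0.151); in these fits 0, 0, 262 and 216 of 16563 genes were called. Without WENRC 1 or WENRC 2, which are not compared in RANKL against ENRI, the changes there were as in the full fit. Rbbp4 stayed called, Ezh1 (limma FDR 0.0509 and 0.0505) and Ezh2 (0.0982 and 0.0976) did not, and 11.6% of all tested genes were called in either fit. With the replicate number as a block in the fit, Ezh2 was no longer called against ENRI (limma FDR 0.0661), while Ezh1 (0.0382) and Rbbp4 (0.0303) were. In WENRC against ENRI, 4 members were called higher without ENRI 1, where 40.1% of all tested genes were called and 20.7% called higher. Ezh2 was among them (change 1.01, limma FDR 0.00123), and its change was 0.43 without ENRI 2. Rbbp4 in WENRC against ENRI was 0.68 without ENRI 1 and 0.19 without ENRI 2.

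**Figure D3:**
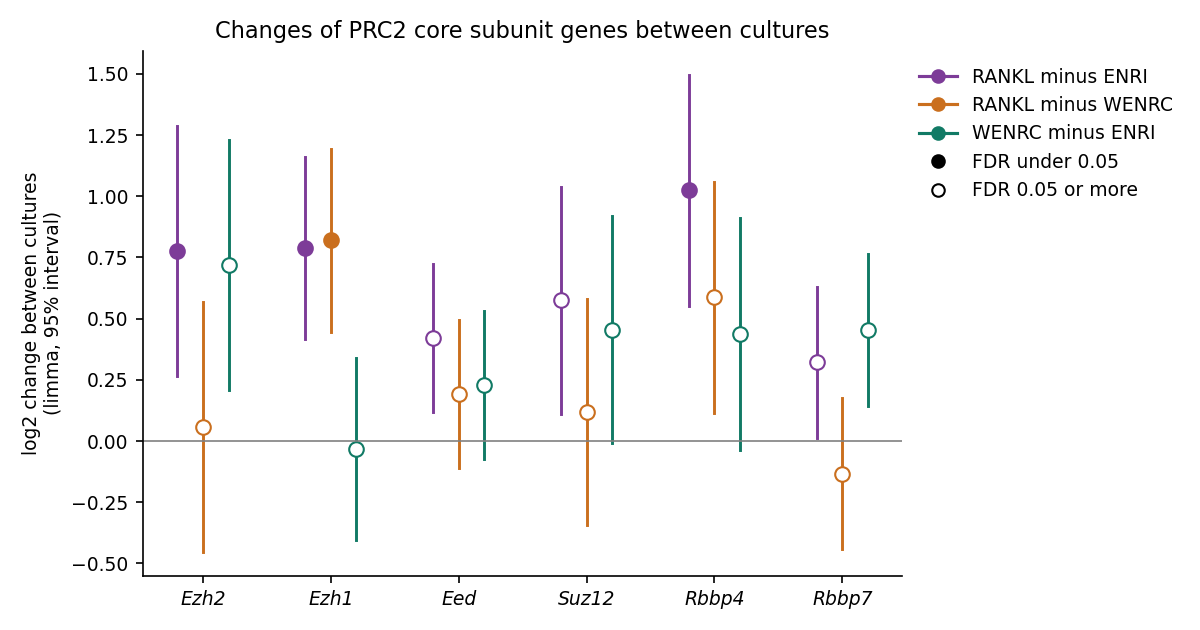
Log2 change of each member in the 3 comparisons, with 95% intervals from limma; filled points passed an FDR of 0.05. In RANKL minus ENRI all 6 points are above 0, from 0.32 for Rbbp7 to 1.02 for Rbbp4, and in RANKL minus WENRC Ezh1 stands highest at 0.82.

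To compare members with one another, levels were taken per length, as the log2 value minus log2 of gene length in kb. On this scale Rbbp7 was highest in every culture, at 5.56 in RANKL, 5.24 in ENRI and 5.70 in WENRC. Rbbp4 followed in RANKL at 5.42, but stood in ENRI (4.39) and WENRC (4.83) below Eed (4.86 and 5.09) and Suz12 (4.42 and 4.87), with ranges that overlapped those of Suz12. The catalytic subunits closed the order. Ezh1 and Ezh2 overlapped in RANKL (4.69 and 4.59) and in ENRI (3.90 and 3.81), and Ezh2 stood above Ezh1 in WENRC (4.53 and 3.87). Per length, Ezh2 was transcribed at 0.933 times the level of Ezh1 in RANKL, 0.940 times in ENRI and 1.58 times in WENRC. Rbbp4 had 0.903 times the level of Rbbp7 in RANKL, 0.555 in ENRI and 0.548 in WENRC. Averaged over the libraries, the members ranked from the 61.0th percentile of tested genes for Ezh1 to the 87.8th for Rbbp7.

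Over the 6 libraries, in which replicates share a culture and the RANKL libraries their own sequencing, Pearson's r between members ranged from 0.20 for Ezh1 with Rbbp7 to 0.98 for Ezh2 with Suz12, given as a description. Ezh2 and Ezh1 had r = 0.56. The genes with the most similar pattern were taken by the smallest root-mean-square difference of values centred over the 6 libraries. For Ezh2 these were Fkbp7 (0.0248 log2 units) and Mipep (0.0340), for Suz12 Ints3 (0.0236) and Nvl (0.0258), and for Eed Hcn4 (0.0438) and Hsd3b7 (0.0490). For Rbbp4 they were Dcun1d5 (0.0554) and Zfp609 (0.0618), and for Rbbp7 Hibch (0.0173) and Phb (0.0346). No member was among the nearest genes of another. Levels in Hcn4 were low, at 3.59 to 4.11, where values appear drawn together.

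Among the accessory subunits, which steer PRC2 to its sites, 4 of 8 tested were higher in RANKL than in ENRI and 0 lower, with a median change of 0.57. Of all tested genes 10.4% were higher and 10.5% lower in that comparison. Jarid2, which recruits PRC2 and tunes its activity, had 15.07 and 15.17 in RANKL, 12.56 and 12.70 in ENRI, and 12.99 and 13.41 in WENRC. Its RANKL libraries were far above the others, by 2.49 against ENRI (SE 0.23, limma FDR 0.00311) and 1.92 against WENRC (SE 0.23, limma FDR 0.00727), more than any core member changed. Lcor was also higher in both, by 0.58 and 0.86 (limma FDR 0.0315 and 0.0146). Aebp2, a partner of JARID2 in the complex, and Phf19, which reads another histone mark, were higher than in ENRI by 0.88 and 0.65 (limma FDR 0.0288 and 0.0345) but were not called against WENRC. Against WENRC 2 of 8 were higher, with a median of 0.32, beside 8.53% of all tested genes. In WENRC against ENRI limma called 0 of 8 (median 0.35), beside 14.6% of all tested genes. Ezhip was not tested.

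The H3K27 demethylases, which remove the mark, gave limma calls for 0 of 3 in each comparison. Of all tested genes 20.9% were called in RANKL against ENRI, 12.1% in RANKL against WENRC and 14.6% in WENRC against ENRI. Kdm6a had 11.68 and 11.63 in RANKL, 10.99 and 11.40 in ENRI, and 10.63 and 11.09 in WENRC. It differed between RANKL and WENRC by 0.80 (limma FDR 0.0694). In ENRI and in WENRC it was lower in mouse 1 than in mouse 2. Uty, also of this list, was high only in the libraries of mouse 1, and the animals behind RANKL are not labelled. The part of the animal in the Kdm6a difference was not tested. Kdm6b, the inducible demethylase, differed between RANKL and WENRC by 0.53 (limma FDR 0.157) and between RANKL and ENRI by 0.03 (limma FDR 0.923).

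Of 22 genes of other complexes that contain RBBP4 or RBBP7, 5 were higher in RANKL than in ENRI and 0 lower, with a median of 0.40. Beside them, 10.4% of all tested genes were higher and 10.5% lower. Of the 5, Chd4, the remodelling ATPase of the NuRD complex, was higher in RANKL than in ENRI by 0.94 (limma FDR 0.00999). Against WENRC it was higher by 0.92 (limma FDR 0.0140). Mta2, of the same complex, followed it with 0.80 and 0.77 (limma FDR 0.0193 and 0.0288). Hdac2, a histone deacetylase, was higher than in ENRI by 1.16 (limma FDR 0.0187). Against WENRC 3 of 22 were higher and 0 lower (median 0.14), beside 8.53% and 3.62% of all tested genes. In WENRC against ENRI 4 of 22 were higher (median 0.09), beside 4.85% of all tested genes. These 4 included Lin9, of the MuvB complex that controls cell cycle genes, by 0.995 (limma FDR 0.0215).

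Genes of the E2F and proliferation list moved most between WENRC and ENRI: 13 of 25 were higher in WENRC and 0 lower, with a median of 1.03. Of all tested genes 4.85% were higher there and 9.74% lower. In RANKL against ENRI 6 of 25 were higher and 1 lower (median 0.47), beside 10.4% and 10.5% of all tested genes. In RANKL against WENRC 0 were higher and 2 lower (median -0.55), beside 8.53% and 3.62%. The summed level of the list, as log2, was 13.67 and 13.81 in RANKL, 13.22 and 12.88 in ENRI, and 13.97 and 13.78 in WENRC. ENRI 2 was lowest and ENRI 1 next, as for Ezh2, Suz12, Rbbp4 and Rbbp7. The summed M cell markers also had these libraries lowest and next, at 9.87 in ENRI 2 and 10.69 in ENRI 1. The part of the proliferation list in the values of the core subunits was not tested. Mki67, a marker of dividing cells, had 11.40 and 11.63 in RANKL, 10.28 and 9.81 in ENRI, and 11.24 and 10.99 in WENRC. It was higher than in ENRI in RANKL by 1.47 (limma FDR 0.00848) and in WENRC by 1.07 (limma FDR 0.0263). Top2a, which untangles DNA at division, was higher than in ENRI by 1.58 in RANKL and 1.70 in WENRC (limma FDR 0.0182 and 0.0209), and Uhrf1, which maintains DNA methylation, by 0.88 and 1.36 (limma FDR 0.0307 and 0.0146). Cdk1 was called in WENRC against ENRI at 1.21 (limma FDR 0.0168). The called genes of the list that were lower in RANKL were Pcna, the sliding clamp of DNA replication, by -1.36 against ENRI and -1.42 against WENRC (limma FDR 0.0334 and 0.0421), and Rrm2, a subunit of ribonucleotide reductase, by -1.39 against WENRC (limma FDR 0.0277); they are named for their direction, after their values were seen. Without RANKL 1 or RANKL 2, 0 genes of these 4 lists were called in any comparison, in fits where limma called 0.670% and 0.386% of all tested genes in RANKL against ENRI and 0 in the other comparisons. Jarid2 then differed from ENRI by 2.54 and 2.44 (limma FDR 0.0566 and 0.0674). Without WENRC 1 or WENRC 2 fewer of all tested genes were called in each comparison. The lists of accessory subunits, other complexes and proliferation genes lost calls with them. Without ENRI 1 or ENRI 2 the calls of the E2F and proliferation list changed in each comparison, and so did those over all tested genes. Other lists also gained calls without ENRI 1.

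**Figure D4:**
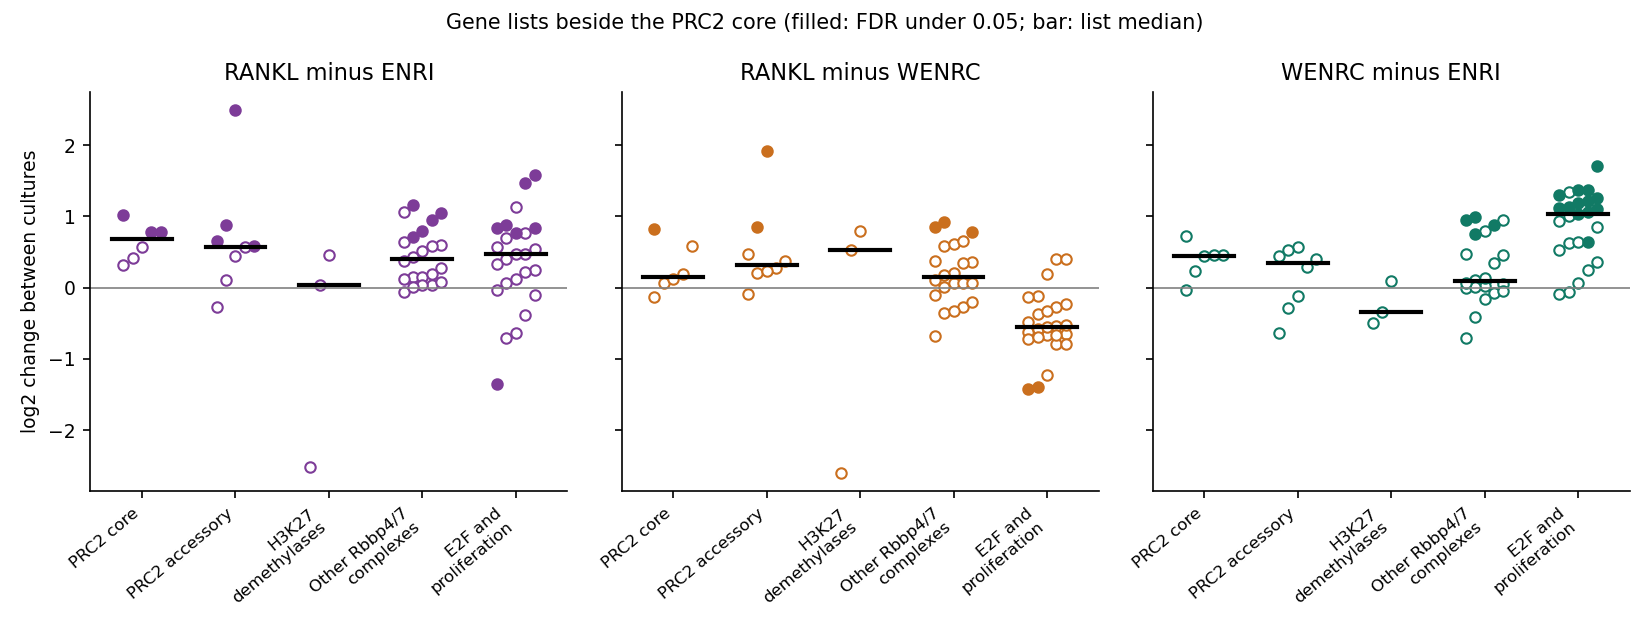
Log2 change of each tested gene of the core list and the 4 other lists in the 3 comparisons, with 1 point per gene and a bar at the list's median. The E2F and proliferation genes have their highest median in WENRC minus ENRI (1.03) and a median below 0 in RANKL minus WENRC (-0.55).

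The H3K27me3 tables hold regions where the tags of one culture exceeded those of the other, as called by the authors, whose fold was at least 2 in every region. They say nothing of a mark that was alike in both cultures, and no difference has a replicate check. None of the 35798 regions higher in RANKL lay within 5 kb of the start or in the body of any of the 6 members, where 24.9% of tested genes had such a region. Of the 13607 regions higher in WENRC, 1 lay at a member, Rbbp7, and 13.2% of tested genes had at least 1, as did 41.8% of the 495 tested genes of the X chromosome, on which Rbbp7 lies. It is in an intron of Rbbp7 (X chromosome, mm9 159204221 to 159204721), 5.92 kb from the start, with 25.2 WENRC tags after the authors' scaling against 8 in pooled RANKL, an authors' fold of 3.15 and p of 1.17e-06.

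For the autosomal members the nearest regions were distant. The nearest region higher in RANKL lay 347 kb from the start of Ezh2, 146 kb from Ezh1, 279 kb from Eed, 300 kb from Suz12 and 70.9 kb from Rbbp4. The nearest region higher in WENRC lay 20.6 kb from the start of Ezh1, in an intron of Ramp2 (41.4 scaled WENRC tags against 19, authors' fold 2.18), and a stronger one lay 49.4 kb away at the promoter of Cntnap1 (68.4 against 14, fold 4.89). For the other autosomal members it was 86.0 kb away for Suz12, 125 kb for Eed, 164 kb for Rbbp4 and 172 kb for Ezh2. Around Rbbp7 the regions were dense: 27 higher in RANKL and 7 higher in WENRC lay within 200 kb of its start, against 0 to 3 and 1 to 5 for the other 5 members. The closest RANKL-higher region there was 29.0 kb away, with 34 tags against 10.8 (fold 3.15). The X chromosome as a whole held 20.8% of the regions higher in RANKL and 10.6% of those higher in WENRC, and 84.8% of its tested genes had a region higher in RANKL. Rbbp7 was thus among the tested X-linked genes without such a region. The labels do not give the animals behind the RANKL and WENRC ChIP-seq libraries. Of the 8 tested accessory subunits, 2 had a region higher in RANKL, Epop and Phf19, beside 24.9% of all tested genes. A region higher in WENRC was at 1 of the 8, Aebp2, beside 13.2% of all tested genes. None of the 3 demethylases had either.

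**Figure D5:**
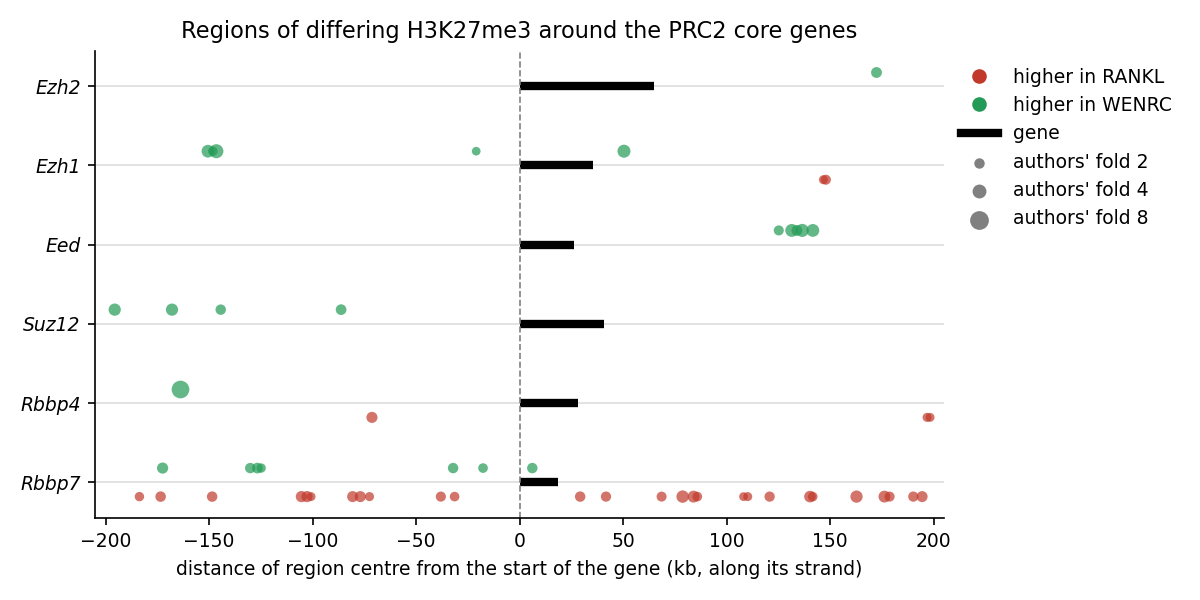
Regions of differing H3K27me3 within 200 kb of the start of each PRC2 core gene, plotted by distance in kb; the bar is the gene, dots above the line are regions higher in WENRC and dots below are regions higher in RANKL, with area scaled by the authors' fold. Rbbp7 has 27 regions higher in RANKL around it and none in its body, and 1 region higher in WENRC lies in its body.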

How the data were processed

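GRO-seq (6 libraries) and H3K27me3 ChIP-seq (3 libraries) were used as processed by the authors. Bowtie2 2.3.4.1, HOMER and DESeq2 are named in the submitters' processing notes, with the mm9 build. Per the file headers, reads were summed over whole RefSeq genes, and the deposited GRO-seq values are log2 and normalized between libraries; the transform is not given in the sources used here. The table also holds the authors' log2 fold changes and p-values per pair of cultures. Peak tables hold, per the file headers, whole tag counts for pooled RANKL, a WENRC signal that the authors scaled by 0.9, and the authors' ratio and p-value per region. GRO-seq depth is unknown.

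Genes with at least 2 libraries at or above log2 of 10 were tested (16563 of 24505; 2131 were 0 throughout). limma 3.58.1 (R 4.3.3) was run on the deposited values, with a variance trend, all 6 libraries and 3 group means. Two-sided p-values were adjusted over all tested genes (Benjamini-Hochberg), with calls at an FDR under 0.05. The fit was tested on simulated data. Paralog differences used exact permutation tests. All members were named. The genes most like Ezh1 in pattern are not reported here. The other lists are described by counts, and by up to 4 genes each with the smallest p in any comparison. Members and lists were chosen with earlier results of these data known. The shared mouse number pairs ENRI with WENRC: deviations of same-numbered libraries had r = 0.414, against -0.205 and -0.323 for pairs with RANKL, whose number names no animal. Alternatives were the libraries in the fit, a block, filters, scaling, no variance trend, the authors' comparison, leaving out each library and, for H3K27me3, window, overlap and fold.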

Additional observations from a re-analysis of the deposited data

Results flagged for a closer look

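For 2 quantities the WENRC minus ENRI difference had opposite signs in the 2 mice, each of which gave 1 library of each culture; these differences between mice were not tested, and per the file header the input names of the libraries of each mouse also carry a date-like number of their own. Ezh1 differed by -0.13 in mouse 1 and 0.064 in mouse 2 on the log2 scale. Rbbp4 minus Rbbp7 differed by -0.24 in mouse 1 and 0.20 in mouse 2. The other 5 members were higher in WENRC in both mice, Ezh2 by 0.44 and 0.99, Rbbp4 by 0.24 and 0.63, and Suz12 by 0.30 and 0.61, with the wider gap in mouse 2 for each of these 3.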

How the results depend on the processing

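Members called higher or lower numbered 3 in RANKL minus ENRI, 1 in RANKL minus WENRC and 0 in WENRC minus ENRI. With the 4 compared libraries alone the first was 1 and the second 2; with the replicate block on those 4 they were 0 and 2, and in the authors' deposited table the second was 2. After upper-quartile recentring and quantile normalization, 18.4% and 19.1% of all tested genes were called in WENRC minus ENRI. The shares called higher were 9.94% and 9.86%, against 4.85% in the main fit. Members called there numbered 2 after recentring and 3 after quantile normalization. Leaving out 1 library gave 0 to 4, 0 to 2 and 0 to 4. Over all genes the counts were 3464, 2012 and 2416; with 4 libraries 1925, 5194 and 0 (limma, with 4074 at an unadjusted p under 0.05), with the replicate block on them 1423, 4686 and 124, and leaving out 1 library 64 to 6966, 0 to 5176 and 0 to 6650. The replicate block on all 6 libraries gave 1506 in WENRC minus ENRI, and RANKL minus WENRC had 4604 in the authors' deposited table. Recentring shifted the median over all genes in RANKL minus WENRC to -0.12, from -0.01, and in WENRC minus ENRI to 0.10, from -0.01. Signs turned for Ezh2 in RANKL minus WENRC (-0.057 recentred, -0.25 quantile), Eed (-0.0063) and Suz12 (-0.13) there under quantile normalization, and Ezh1 in WENRC minus ENRI (0.081 recentred, 0.061 quantile, -0.17 to 0.11 leaving out 1 library). Leaving out 1 library also turned Ezh2 minus Ezh1 in RANKL minus ENRI (-0.17 to 0.14) and Rbbp4 minus Rbbp7 in WENRC minus ENRI (-0.23 to 0.20). H3K27me3 regions at members, 0 higher in RANKL and 1 in WENRC, became 4 and 5 with a 50 kb window, and the 1 became 0 at a fold of 4. All 4 belonged to Rbbp7, and of the 5, 3 belonged to Rbbp7 and 2 to Ezh1. Where no construction explains it, the cause was not tested. With 2 libraries a culture and unknown depth, small differences were not detectable.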
